A study of Rattus norvegicus with 16 samples.

Results

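The genes described here are 10 genes of TGF-β and BMP signalling, followed in the normal distal colon of 16 rats on single-colour microarrays: the TGF-β ligands Tgfb1, Tgfb2 and Tgfb3, the activin subunit gene Inhba, the BMP ligands Bmp2, Bmp4 and Bmp7, the BMP antagonist Grem1, and the transcriptional targets Id1 and Id3. They were chosen by name, with earlier results of these data known. All probes whose RefSeq transcript belonged to one of these symbols were taken, which gave 12 probes of 30367 on the array and 10 genes of the 15159 that could be named. Grem1 and Tgfb2 had a pair of probes each, and the brighter one on average is the main probe. All rats were (ACIxF344)F1 animals sampled at 97 days of age, and the labels give no sex. A group of 4 rats was formed for each combination of genotype and treatment. Pirc rats are heterozygous for a mutant allele of Apc, the gene lost in most colorectal adenomas, and were compared with wildtype rats. Treated rats drank 4% dextran sodium sulfate (DSS), which injures and inflames the colon, from day 40 to day 47 and again from day 54 to day 61, so that the tissue was taken 36 days after the last exposure, and the control rats received no DSS. The source label of every sample is normal distal colon, so no array is labelled as adenoma. Whether small growths were present in the tissue cannot be told from the labels. The strain label carries the word Pirc for wildtype rats also, and Apc transcript levels do not check the genotype label, because the Pirc allele is a point mutation.

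TGF-β ligands are secreted in a latent form, held in the matrix by latent TGF-β binding proteins, and signal once released through type I and type II receptors and the Smad proteins Smad2 and Smad3. Activins, dimers of inhibin β subunits, use the same Smads, whereas BMPs act through Smad1, Smad5 and Smad8 and induce the Id genes, whose products hold back basic helix-loop-helix factors. In the colon BMP signalling is strongest near the surface and is kept low at the crypt base by antagonists such as Grem1, which are made by cells under the crypts, while TGF-β is known for its part in matrix production, wound repair and the restraint of epithelial growth.

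The windows just upstream of 3 of the genes are shown because they belong to a ligand that rose after DSS, to the antagonist, and to a BMP target that did not pass the test, and because the motifs in them differ. They were taken from RefSeq on the GRCr8 assembly, which held a window for 8 of the 10 genes, and are written 5′ to 3′ on the strand of the gene. Tgfb1 is on the + strand of chromosome 1 (chr1:90324062-90324311), Grem1 on the - strand of chromosome 3 (chr3:120978320-120978569), and Id1 on the + strand of chromosome 3 (chr3:161671314-161671524). Capitals mark matches on either strand to the Smad-binding box CAGAC, the GC-rich Smad box GGCGCC, the GC box CCGCCC and the TATA box TATAAA.
Tgfb1: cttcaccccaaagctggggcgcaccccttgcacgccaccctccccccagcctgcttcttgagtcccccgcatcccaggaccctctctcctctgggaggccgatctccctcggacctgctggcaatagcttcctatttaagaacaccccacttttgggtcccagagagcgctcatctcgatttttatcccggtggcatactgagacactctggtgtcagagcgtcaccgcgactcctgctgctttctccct
Grem1: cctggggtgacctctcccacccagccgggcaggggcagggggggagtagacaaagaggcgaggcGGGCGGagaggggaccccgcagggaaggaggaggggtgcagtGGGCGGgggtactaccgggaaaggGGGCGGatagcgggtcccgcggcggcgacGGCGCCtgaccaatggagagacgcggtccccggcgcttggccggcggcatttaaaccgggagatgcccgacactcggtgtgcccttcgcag
Id1: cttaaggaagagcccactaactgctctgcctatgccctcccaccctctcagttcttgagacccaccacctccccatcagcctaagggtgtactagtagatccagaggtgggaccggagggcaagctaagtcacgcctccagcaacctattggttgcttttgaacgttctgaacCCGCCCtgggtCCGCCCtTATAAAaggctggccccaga
No motif was found in the Tgfb1 window. The Grem1 window held 3 GC boxes and 1 GC-rich Smad box, and the Id1 window held 2 GC boxes and 1 TATA box, with no overlap between matches in these windows. The printed Id1 stretch ends at the annotated start of the gene and is 211 bases long, whereas the counts that follow use 250 bases for every window. The Smad-binding box occurred in 42.9% of all 33469 windows of 250 bases and in 1 of the 8 members with a window, Bmp4. The GC-rich Smad box occurred in 8.69% of all windows and in 1 member, the GC box in 30.5% and in 4 members (Bmp4, Grem1, Id1 and Id3), and the TATA box in 12.9% and in 2 members (Inhba and Id1). A match of letters is no evidence that a factor binds there.

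Levels are log2 of the background-subtracted signal minus the log2 of the 75th percentile of the signal on the same array, so that a difference of 1 is a factor of 2 and negative values are dimmer than that percentile. The percentile ranged from 875 to 2194 over the 16 arrays, and the number of arrays limits the precision. A probe passed at a Benjamini-Hochberg adjusted p of 0.05 or less over all 30367 probes in limma. The bulk tissue cannot separate fewer cells of a type from less RNA per cell. The defining markers of intestinal epithelium (9 of 9) and of distal colon absorptive cells (7 of 7) were well above background on all 16 arrays. For DSS over both genotypes 0 of the 9 epithelial markers passed in limma, with 1 at an unadjusted p under 0.05. In Pirc rats alone 1 of the 9 was lower after DSS. Over both genotypes 1 of the 7 absorptive markers was higher and 1 lower, and 1 of 4 measured goblet cell markers was lower. Markers of several other cell types were higher with DSS, where 10.2% of all probes passed with a higher level. These were 8 of 8 fibroblast genes, 4 of 7 macrophage genes, 3 of 5 measured endothelial genes, 4 of 5 measured neutrophil genes, 3 of 3 measured B and plasma cell genes and 5 of 5 measured squamous epithelium genes. The mean level of the fibroblast genes lay between -4.36 and -3.83 in untreated and between -3.49 and -0.86 in DSS-treated wildtype rats, and between -4.29 and -3.54 in untreated and between -2.14 and -0.85 in DSS-treated Pirc rats. Macrophage genes lay between -3.39 and -3.10 against -2.81 and -1.70 in wildtype rats, and between -3.33 and -3.04 against -2.15 and -1.66 in Pirc rats. Of 6 measured smooth muscle genes 0 rose and 1 fell with DSS, but their mean was well above that of the other rats of the group in untreated wildtype rat 25 (-2.14), DSS-treated wildtype rat 26 (-1.60) and DSS-treated Pirc rat 16 (-2.87), and Lmod1 was not well above background on any array. The part of these cells in the members' results was not tested.

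Tgfb1, a TGF-β ligand gene expressed by many cell types, was higher after DSS in both genotypes and highest in DSS-treated Pirc rats. In untreated rats its level was -7.00, -6.87, -7.13 and -7.79 in the wildtype rats 13, 17, 21 and 25, and -6.52, -6.86, -6.59 and -7.27 in the Pirc rats 11, 15, 19 and 23. After DSS it was -4.90, -5.07, -5.36 and -4.85 in the wildtype rats 14, 18, 22 and 26, and -4.24, -3.70, -3.91 and -4.12 in the Pirc rats 12, 16, 20 and 24. Every DSS-treated rat was above every untreated rat, and every DSS-treated Pirc rat was above every DSS-treated wildtype rat, while the untreated genotypes overlapped. The rise with DSS over both genotypes was 2.48 ± 0.15 (SE, 8 rats against 8), a factor of 5.60 (limma adjusted p = 2.33e-06). It was 2.82 ± 0.22 in Pirc rats (limma adjusted p = 2.54e-05) and 2.15 ± 0.22 in wildtype rats (limma adjusted p = 0.000711, n = 4 per group). Signals stood well above background on 1 of 4 untreated wildtype and 3 of 4 untreated Pirc arrays and on all 8 arrays of DSS-treated rats, so the folds rest on dim untreated values.

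Between genotypes, Tgfb1 was 1.06 ± 0.22 higher in DSS-treated Pirc rats than in DSS-treated wildtype rats, a factor of 2.08 (limma adjusted p = 0.00583). In untreated rats the same difference was 0.39 (95% interval -0.08 to 0.86, limma adjusted p = 0.577). Over both treatments it was 0.72 ± 0.15 (limma adjusted p = 0.0068). Of 5 measured neutrophil markers 2 were also higher in Pirc than in wildtype rats after DSS, where 18.2% of all probes passed in either direction. The mean level of these markers was -2.72 to -1.24 in DSS-treated Pirc rats against -4.25 to -3.25 in DSS-treated wildtype rats, with no overlap. Unlike Tgfb1, they did not overlap in untreated rats either, at -4.94 to -4.54 in Pirc and -5.70 to -5.04 in wildtype rats. Their part in the Tgfb1 difference was not tested. The 2 genotypes differed in their DSS effect by 0.67, Pirc above wildtype (95% interval 0.01 to 1.33), which did not pass over all probes (limma adjusted p = 0.467). With normexp background correction the rise in wildtype rats was 0.64 (limma adjusted p = 0.0699) and the genotype difference 0.39 after DSS (limma adjusted p = 0.14) and 0.10 over both treatments (limma adjusted p = 0.508), so these 3 calls were lost, while the rises over both genotypes (0.93) and in Pirc rats (1.22) were smaller and passed. Within each slide, which held 2 rats of every group, the rise over both genotypes was 2.34 and 2.63 and passed on both.

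**Figure D1:**
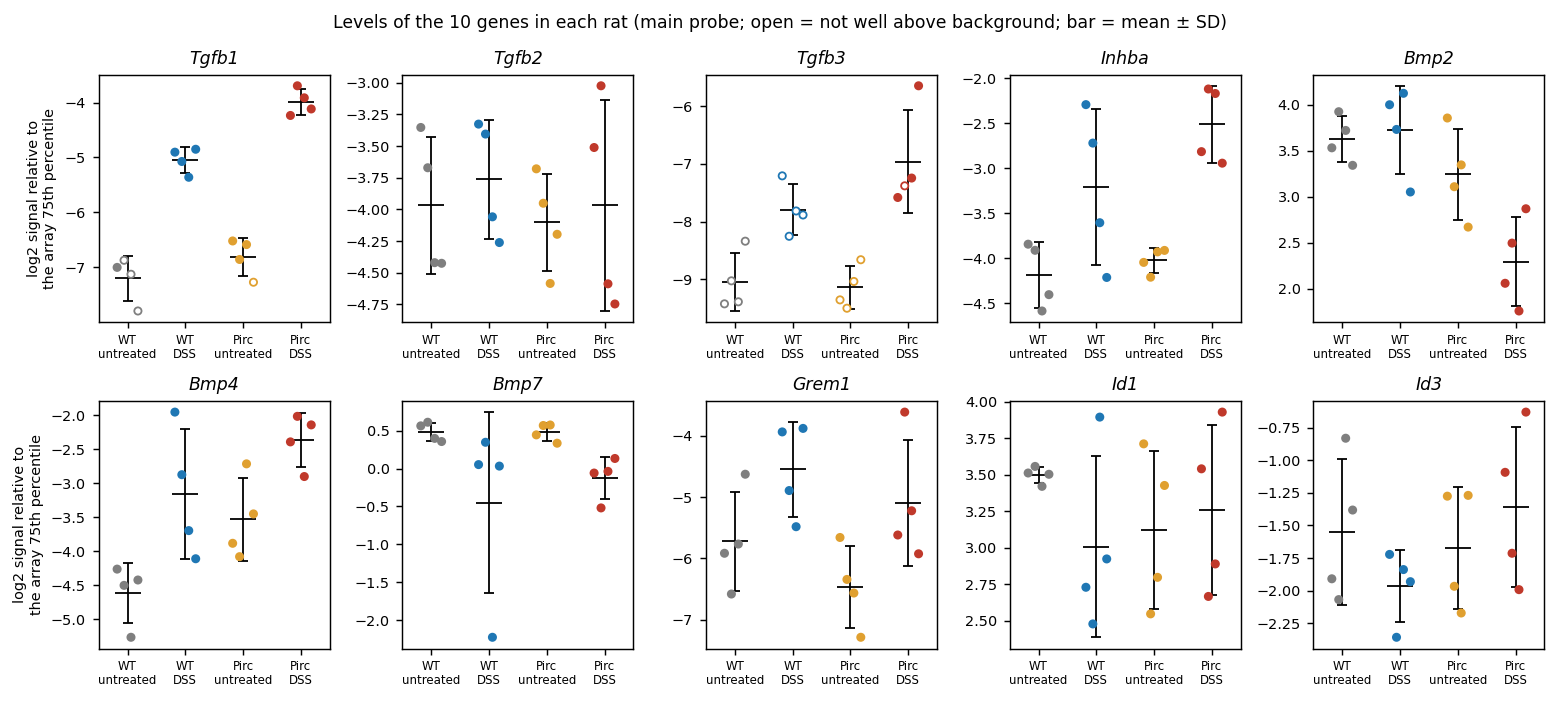
Level of the main probe of each of the 10 genes in each of the 16 rats (log2 signal relative to the 75th percentile of the array, separate axis per gene), by genotype and treatment; bars give mean ± SD (n = 4), and open points were not well above background. Tgfb1 lies between -5.36 and -3.70 in DSS-treated rats and between -7.79 and -6.52 in untreated rats, and Bmp2 is lowest in DSS-treated Pirc rats.

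Tgfb3 was near the detection limit in this tissue. The level ran from -9.43 to -8.34 in untreated wildtype rats and from -9.50 to -8.66 in untreated Pirc rats, and on 0 of these 8 arrays did the probe stand well above background. It ran from -8.26 to -7.21 in DSS-treated wildtype rats, again well above background on 0 of 4, and was -7.58, -7.38, -7.24 and -5.64 in the DSS-treated Pirc rats 12, 16, 20 and 24, well above background on 3 of 4. The values of treated and untreated Pirc rats did not overlap. Some treated values lay below the detection limit of untreated arrays, so the order of these rats is not settled. The fit gave 2.18 ± 0.39 in Pirc rats (limma adjusted p = 0.00179), where the detection limit allows only the statement that Tgfb3 was at least 1.14-fold higher. In wildtype rats both sides of the comparison were not well above background, so no fold or order of rats is given, and the fitted 1.26 did not pass (limma adjusted p = 0.0924). The fit over both genotypes passed (1.72 ± 0.27, limma adjusted p = 0.00054) but includes these wildtype values, so it is no measure of size. Both calls were lost when all dim values were set to a common floor, and the call in Pirc rats also with normexp.

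Tgfb2, the ligand gene for the remaining TGF-β, showed no shift that passed. The level of its main probe was -3.35, -3.67, -4.42 and -4.43 in untreated wildtype rats and -3.33, -3.40, -4.06 and -4.26 after DSS. In Pirc rats it was -3.68, -3.95, -4.58 and -4.20 untreated and -3.51, -3.02, -4.59 and -4.75 after DSS, in order of rat number. In each of the 4 groups both rats on the first slide were higher than both rats on the second, and the groups overlapped. The DSS difference over both genotypes was 0.17 (95% interval -0.41 to 0.75, limma adjusted p = 0.747), and with slide as a block the limma adjusted p was 0.436. The second Tgfb2 probe, 1 spot per array and well above background on 5 of 16 arrays, gave 0.35 with a 95% interval from -1.54 to 2.24.

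Inhba encodes the βA subunit shared by activin A and inhibin A. Its level was -3.84, -3.91, -4.59 and -4.41 in untreated wildtype rats and -4.05, -4.21, -3.93 and -3.91 in untreated Pirc rats. After DSS it was -2.29, -2.72, -3.61 and -4.21 in the wildtype rats 14, 18, 22 and 26, and -2.82, -2.12, -2.17 and -2.94 in the Pirc rats. All DSS-treated Pirc rats stood above all untreated rats, whereas DSS-treated wildtype rat 26 lay among the untreated ones. The rise was 1.25 ± 0.24 over both genotypes (limma adjusted p = 0.00252) and 1.51 ± 0.34 in Pirc rats (limma adjusted p = 0.00883), a factor of 2.86. In wildtype rats the difference of 0.98 did not pass (limma adjusted p = 0.145). Without rat 26 it was 1.31 and passed, and without rat 14 it was 0.67. Of 16 fits with 1 rat left out, only the 1 without rat 26 passed. The DSS effects of the genotypes differed by 0.53 (95% interval -0.51 to 1.58), which did not pass (limma adjusted p = 0.745). In DSS-treated wildtype rats 14, 18, 22 and 26, the mean fibroblast level was -0.86, -1.76, -3.49 and -2.90. The pair with the highest Inhba, rats 14 and 18, was also the pair with the highest fibroblast genes and the pair on the first slide. The wildtype difference was 1.37 on the first slide and 0.59 on the second. Over both genotypes the rise was 1.52 on the first slide and passed, and 0.98 on the second and did not pass. Among the DSS-treated Pirc rats 12, 16, 20 and 24 the fibroblast mean was -2.02, -0.85, -2.14 and -1.65. It was lowest in rat 20, whose Inhba was next to the highest. The part of fibroblasts was not tested.

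Bmp4, a BMP ligand gene made mainly by mesenchymal cells of the gut, rose with DSS over both genotypes. The level was -4.26, -4.50, -5.26 and -4.42 in untreated wildtype rats and -3.88, -4.08, -2.72 and -3.45 in untreated Pirc rats. After DSS it was -1.96, -2.88, -3.70 and -4.11 in the wildtype rats 14, 18, 22 and 26, and -2.39, -2.02, -2.90 and -2.14 in the Pirc rats. The wildtype groups did not overlap, and among DSS-treated wildtype rats the order of rats was that of Inhba. Untreated Pirc rat 19 (-2.72) lay within the range of DSS-treated Pirc rats. The rise with DSS was 1.31 ± 0.30, a factor of 2.48 (limma adjusted p = 0.00645). By genotype it was 1.17 in Pirc rats (limma adjusted p = 0.0778) and 1.45 in wildtype rats (limma adjusted p = 0.0708), neither of which passed, and the difference of these effects was -0.28 (95% interval -1.55 to 0.98, limma adjusted p = 0.92). Without rats 16, 25 and 26 the rise in wildtype rats was 1.83 and passed (limma adjusted p = 0.0462). With 1 rat left out it ranged from 1.05 (without rat 14) to 1.77 (without rat 26) and passed in 1 of 16 fits. Bmp4 was also higher in Pirc than in wildtype rats over both treatments, by 0.94 ± 0.30 (limma adjusted p = 0.041). That call was lost in 11 of 16 fits with 1 rat left out and with normexp background correction, and the difference was 0.31 on the first slide and 1.57 on the second. The DSS rise over both genotypes was 1.87 on the first slide and 0.75 on the second.

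Bmp2, a BMP ligand gene expressed by surface epithelium in the colon, went the other way in Pirc rats. Its level was 3.53, 3.93, 3.72 and 3.34 in untreated wildtype rats and 4.00, 3.73, 4.13 and 3.05 after DSS. In Pirc rats it was 3.86, 3.11, 3.35 and 2.67 in the untreated rats 11, 15, 19 and 23, and 2.06, 2.49, 1.76 and 2.87 in the DSS-treated rats 12, 16, 20 and 24. All DSS-treated Pirc rats were below all wildtype rats of either treatment, but DSS-treated rat 24 (2.87) was above untreated Pirc rat 23 (2.67). Among DSS-treated rats Bmp2 was 1.43 ± 0.30 lower on the log2 scale in Pirc than in wildtype, a factor of 2.70 (limma adjusted p = 0.00574), with no overlap. In untreated rats the difference, Pirc minus wildtype, was -0.38 (95% interval -1.02 to 0.25, limma adjusted p = 0.707), and over both treatments it was -0.91 ± 0.21 (limma adjusted p = 0.00935). DSS-treated minus untreated, the difference was -0.95 ± 0.30 in Pirc rats (limma adjusted p = 0.0436) and 0.10 in wildtype rats (95% interval -0.53 to 0.73, limma adjusted p = 0.902). The difference between these DSS effects was -1.05 (95% interval -1.94 to -0.16) and did not pass (limma adjusted p = 0.394). The call for DSS in Pirc rats was lost in 12 of 16 fits with 1 rat left out, whereas the genotype difference after DSS passed in all 16.

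**Figure D2:**
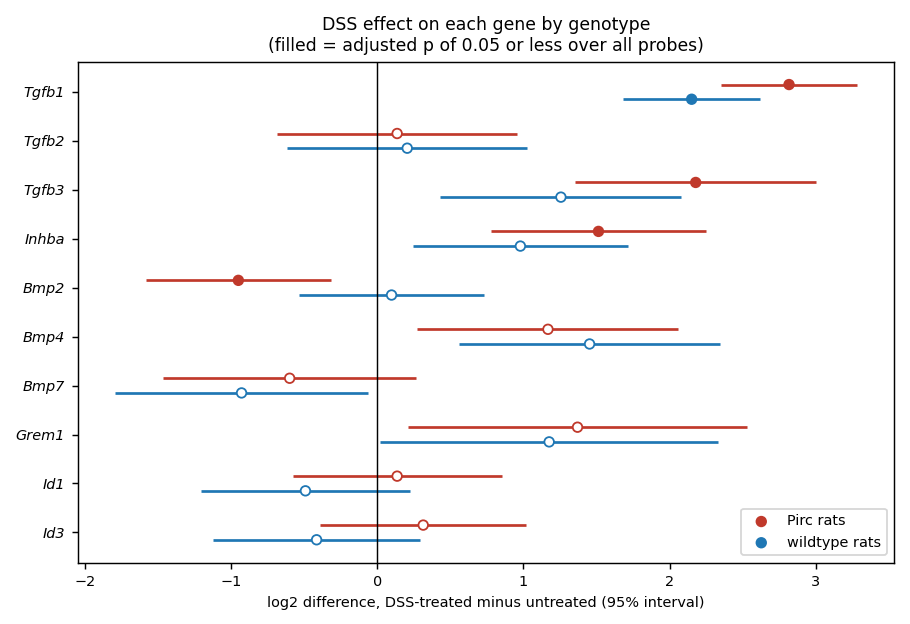
Difference in log2 level, DSS-treated minus untreated, for the main probe of each gene in Pirc and in wildtype rats, with 95% intervals from limma (4 rats against 4); filled points passed over all probes. Tgfb1 passed in both genotypes, and Tgfb3, Inhba and Bmp2 passed in Pirc rats without the test of a difference between genotypes passing.

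Bmp7, a BMP ligand gene of epithelial tissues, was close to 0.5 on this scale in all untreated rats and did not pass for DSS. The untreated levels ran from 0.36 to 0.61 in wildtype rats and from 0.33 to 0.57 in Pirc rats. After DSS they were 0.05, 0.35, -2.22 and 0.03 in the wildtype rats 14, 18, 22 and 26, and -0.06, -0.52, -0.04 and 0.13 in the Pirc rats 12, 16, 20 and 24. In each genotype all DSS-treated rats were below all untreated rats, in wildtype rats by little (0.35 in treated rat 18 against an untreated minimum of 0.36). Wildtype rat 22 was far below every other rat. The DSS difference over both genotypes was -0.76 (95% interval -1.38 to -0.15, limma adjusted p = 0.0856). Without rat 22 it was -0.47 and passed (limma adjusted p = 0.0091).

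Grem1, a secreted BMP antagonist, has 2 probes that both read higher after DSS over both genotypes, by amounts that differ. The main probe was -5.92, -6.58, -5.77 and -4.63 in the untreated wildtype rats 13, 17, 21 and 25, and -5.66, -6.34, -6.57 and -7.29 in the untreated Pirc rats 11, 15, 19 and 23. After DSS it was -3.93, -4.89, -5.48 and -3.88 in the wildtype rats 14, 18, 22 and 26, and -5.62, -3.61, -5.22 and -5.93 in the Pirc rats 12, 16, 20 and 24. The treated and untreated rats of each genotype overlapped. Over both genotypes the rise was 1.27 ± 0.38 (limma adjusted p = 0.0323), and it did not pass in Pirc rats (1.37, limma adjusted p = 0.112) or in wildtype rats (1.18, limma adjusted p = 0.288) alone. The call was lost in 10 of 16 fits with 1 rat left out and with quantile normalization (1.03, limma adjusted p = 0.0658).

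The second Grem1 probe spread more widely. It was -7.92, -7.82, -8.70 and -3.50 in untreated wildtype rats and -8.34, -7.58, -9.16 and -8.60 in untreated Pirc rats, well above background on 1 of 4 arrays in each group. After DSS it was -3.78, -5.55, -6.61 and -2.05 in wildtype rats and -5.28, -3.05, -4.06 and -5.19 in Pirc rats, well above background on all 8 arrays. Pirc rats did not overlap between treatments, and untreated wildtype rat 25 lay above 3 of the 4 DSS-treated wildtype rats. The rise was 3.26 ± 0.76 over both genotypes (limma adjusted p = 0.00795) and 4.03 ± 1.08 in Pirc rats (limma adjusted p = 0.0213), while the 2.49 in wildtype rats did not pass (limma adjusted p = 0.251). With normexp the rise over both genotypes was 1.07 and passed, and with dim values at a common floor neither call held.

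Rats 25, 26 and 16, the ones with the highest smooth muscle genes in their groups, had the highest level of both Grem1 probes in their groups. The smooth muscle mean lay between -4.63 and -2.14 in untreated and between -4.48 and -1.60 in DSS-treated wildtype rats, and between -4.92 and -2.87 in DSS-treated Pirc rats. In untreated Pirc rats, where it lay between -4.94 and -4.44, the rat with the highest Grem1 was 11 by the main probe and 15 by the second. The highest smooth muscle mean of that group was in rat 23, which had the lowest main probe of the group (-7.29). Without rats 16, 25 and 26 the main probe rose by 1.10 (limma adjusted p = 0.0293) and the second by 3.21 (limma adjusted p = 0.000593) over both genotypes. The second probe then passed in wildtype rats as well, at 2.83 (limma adjusted p = 0.0294). The plot of Grem1 against the smooth muscle mean shows these 3 rats apart from the other 13.

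**Figure D3:**
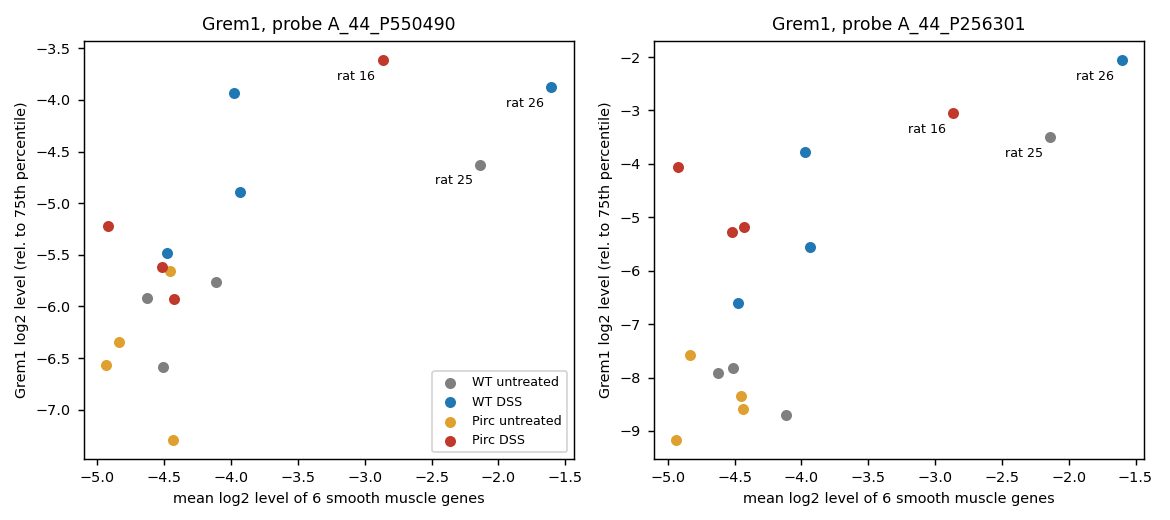
Level of the main (left) and second (right) Grem1 probe against the mean log2 level of 6 smooth muscle genes, both relative to the 75th percentile of the array, with 1 point per rat. Rats 16, 25 and 26 have a smooth muscle mean of -2.87, -2.14 and -1.60 and the highest Grem1 of their groups; among the other 13 rats every DSS-treated rat lies above every untreated rat by the second probe.

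Id1 and Id3, whose transcription follows BMP signalling, gave no call. Id1 was 3.51, 3.56, 3.42 and 3.50 in untreated wildtype rats, 2.73, 2.48, 3.89 and 2.92 after DSS, 3.71, 2.55, 2.80 and 3.43 in untreated Pirc rats, and 3.54, 2.67, 2.89 and 3.93 in DSS-treated Pirc rats. The SD was 0.06 in untreated wildtype rats and 0.54 to 0.62 in the other groups (n = 4 each), and the groups overlapped. The DSS difference over both genotypes was -0.18 (95% interval -0.68 to 0.33, limma adjusted p = 0.706) and the Pirc difference -0.06 (95% interval -0.57 to 0.44, limma adjusted p = 0.881). Id3 ranged from -2.36 to -0.63 over the 16 rats, with overlap between all groups. Its DSS difference was -0.05 (95% interval -0.55 to 0.45, limma adjusted p = 0.921) and its Pirc difference 0.24 (95% interval -0.26 to 0.74, limma adjusted p = 0.503).

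Counted over the members, 6 of 12 probes passed for DSS over both genotypes, all of them higher, where 17.2% of all probes passed and 10.2% of all probes passed with a higher level. The 6 were the probes of Tgfb1, Tgfb3, Inhba and Bmp4 and both probes of Grem1. The median difference over the 10 genes was 0.71, against 0.06 over all probes. Because the genes were chosen with earlier results of these data known, these counts and medians are a description and no test of the set. In Pirc rats 5 of 12 probes passed against a background of 14.7%. Of these, 4 were higher (Tgfb1, Tgfb3, Inhba and the second Grem1 probe), where 8.14% of all probes were, and 1 was lower (Bmp2), where 6.51% were. In wildtype rats 1 of 12 passed, Tgfb1, against a background of 3.84%. With 1 rat left out, 1 to 3 members passed in wildtype rats, the most without rat 26, and the count stayed the same in 13 of 16 fits.

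For genotype the members stood close to the rest of the array. Over both treatments 3 of 12 probes passed (Tgfb1 and Bmp4 higher, Bmp2 lower in Pirc rats) against a background of 17.5%. After DSS 2 of 12 passed, Tgfb1 higher and Bmp2 lower, against 18.2% of all probes. In untreated rats 0 of 12 members passed in limma, as did 0 of all probes (0%), with 1 member and 3103 probes of the array at an unadjusted p under 0.05. For the difference between DSS effects 0 of 12 members passed in limma, against 13 of all probes (0.0428%), with 2 members at an unadjusted p under 0.05. Comparisons that share a group share its rats, so these counts are not independent of each other.

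Of 86 other genes listed for these pathways, 77 had a probe, and 23 of them passed for DSS over both genotypes, 18 higher and 5 lower, with a median difference of 0.11 over the 77, where 17.2% of all probes passed and 10.2% passed with a higher level. These lists too were drawn up with earlier results of these data known. The 6 genes listed as TGF-β targets were all higher, with a median of 2.36. They included Fn1 (2.03), which encodes the matrix protein fibronectin, and Tgfbi (1.09), which encodes a matrix protein named for its induction by TGF-β. The smooth muscle gene Tagln, on the same list, rose by 2.76 ± 0.89 (limma adjusted p = 0.0441) but lost that call in 13 of 16 fits with 1 rat left out. Of 7 genes of TGF-β latency and activation 4 were higher, among them the latent TGF-β binding protein genes Ltbp3 (3.28, and 1.15 with normexp, which passed) and Ltbp4 (1.65). Of 5 TGF-β receptor genes 2 were higher, among them the endothelial coreceptor gene Eng (1.41). Fst, whose product binds activin, was higher by 1.22 (limma adjusted p = 0.0171), as were 3 of 11 BMP antagonist genes. Endothelial markers, of which 3 of 5 measured rose and Tek was not well above background on any array, had a mean level of -5.37 to -4.72 in untreated and -4.83 to -4.12 in DSS-treated wildtype rats, and of -5.67 to -4.77 and -4.47 to -4.02 in Pirc rats. The mean level of the measured squamous epithelium genes was -5.90 to -5.61 in untreated and -5.69 to 1.44 in DSS-treated wildtype rats. It was -5.75 to -4.77 in untreated and -0.23 to 1.92 in DSS-treated Pirc rats. The part of fibroblasts, endothelium and squamous epithelium in these rises was not tested.

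Ltbp3, whose product holds latent TGF-β in the matrix, was dim in untreated rats. Its level was -8.74, -7.15, -7.44 and -8.66 in untreated Pirc rats, well above background on 2 of 4 arrays, and -5.03, -4.03, -2.70 and -3.19 after DSS. In wildtype rats it was -7.30, -7.86, -8.81 and -7.53 untreated, well above background on 0 of 4 arrays, and -5.20, -5.78, -4.82 and -6.52 after DSS. The treated and untreated rats did not overlap in either genotype. In wildtype rats Ltbp3 was at least 2.52-fold higher after DSS (limma adjusted p = 0.0282). That call was lost with quantile normalization and in 6 of 16 fits with 1 rat left out. The squamous mean was -0.23, 0.50, 1.92 and 1.75 in the DSS-treated Pirc rats 12, 16, 20 and 24, the order of Ltbp3. The fibroblast mean there was -2.02, -0.85, -2.14 and -1.65, another order. Among the DSS-treated wildtype rats 14, 18, 22 and 26 the squamous mean was -2.86, -1.31, 1.44 and -5.69. Rat 22 was highest and rat 26 lowest for both, with rats 14 and 18 exchanged. The part of squamous cells in Ltbp3 was not tested.

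The falls with DSS over both genotypes were Bambi (-1.67, limma adjusted p = 0.00106), which encodes a decoy receptor that dampens TGF-β and BMP signals, the BMP antagonist gene Nbl1 (-0.76), the activin receptor gene Acvr2b (-0.69), the inhibin α gene Inha (-0.66) and Id2 (-0.59). Bambi was -1.53, -1.07, -1.21 and -1.48 in untreated and -2.84, -2.89, -2.46 and -4.29 in DSS-treated wildtype rats. In Pirc rats it was -0.94, -1.12, -1.50 and -1.77 untreated and -3.35, -3.64, -2.75 and -1.73 after DSS, so that only DSS-treated rat 24 lay within the untreated range. The call for Id2 was lost in 5 of 16 fits with 1 rat left out. For DSS over both genotypes 0 of 8 Smad genes, 0 of 10 other BMP ligand genes and 0 of 6 BMP receptor genes passed in limma. Of these, 1, 1 and 0 had an unadjusted p under 0.05. Over the whole array 17.2% of probes passed, higher or lower, and 8499 of 30367 had an unadjusted p under 0.05.

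**Figure D4:**
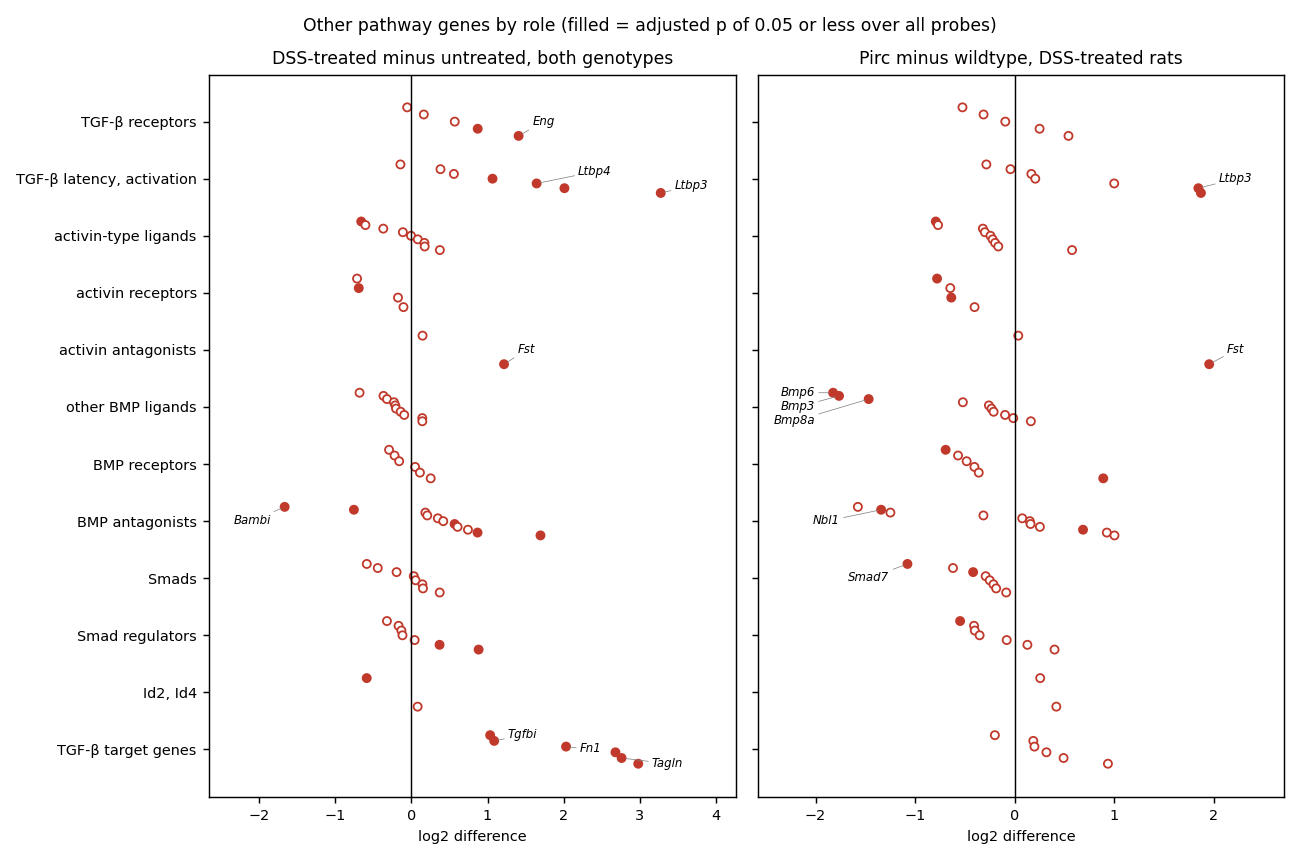
Difference in log2 level for each of the 77 other pathway genes by role, for DSS over both genotypes (left) and for Pirc against wildtype among DSS-treated rats (right); filled points passed over all probes, and the labelled genes are those named in the text with a difference of at least 1. On the left all 6 TGF-β target genes lie to the right of 0, and on the right Bmp3, Bmp6 and Bmp8a lie farthest left among the BMP ligand genes.

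For Pirc over both treatments 10 of the 77 genes passed, 2 higher and 8 lower, with a median of -0.13, where 17.5% of all probes passed. Fst was higher by 1.41 (limma adjusted p = 0.00953). The lower genes named by the rule were Nbl1 (-1.23), Bmp6 (-1.07), Bmp3 (-0.92), Bmp8a (-0.90), Smad7 (-0.77), which encodes an inhibitory Smad, and Inhbb (-0.53). Among DSS-treated rats 16 of 77 differed between the genotypes, 5 higher and 11 lower in Pirc rats, where 18.2% of all probes passed. For the difference between DSS effects 0 of 77 passed in limma, where 0.0428% of all probes passed. Of the 77 genes, 10 had an unadjusted p under 0.05, as did 3234 of all 30367 probes. The call for Inhbb was lost in 11 of 16 fits with 1 rat left out.

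Bmp3, Bmp6 and Bmp8a were named because they were lower in Pirc rats, so their values are given as a description. The remaining 7 of the 10 other BMP ligand genes did not pass for Pirc over both treatments. Bmp3 was -2.28, -2.40, -1.49 and -2.03 in untreated and -1.50, -1.60, -1.68 and -2.77 in DSS-treated wildtype rats, and -1.97, -2.09, -1.93 and -2.52 in untreated and -3.24, -2.87, -3.98 and -4.52 in DSS-treated Pirc rats. Bmp6 ran from -3.34 to -2.12 over all wildtype rats, from -4.13 to -3.07 in untreated Pirc rats and from -4.92 to -3.66 in DSS-treated Pirc rats. Bmp8a ran from -2.15 to -1.22 over all wildtype rats, from -2.71 to -1.63 in untreated Pirc rats and from -3.49 to -2.60 in DSS-treated Pirc rats. For each of the 3, every DSS-treated Pirc rat was below every wildtype rat. Among DSS-treated rats the difference, Pirc minus wildtype, was -1.76 ± 0.35 for Bmp3, -1.82 ± 0.29 for Bmp6 and -1.47 ± 0.24 for Bmp8a. The differences between DSS effects were -1.69, -1.50 and -1.14, and like that of Bmp2 they did not pass (limma adjusted p = 0.263, 0.234 and 0.279). The epithelial markers, of which 4 of 9 were lower in Pirc than in wildtype rats after DSS and 3 of 9 over both treatments, had a mean level of 5.13 to 5.42 in DSS-treated Pirc rats and of 5.48 to 5.68 in DSS-treated wildtype rats. Of 4 measured goblet cell markers 1 was lower in Pirc rats after DSS, and their mean level was 3.08 to 4.86 in DSS-treated Pirc rats against 4.82 to 5.34 in DSS-treated wildtype rats, 4.85 to 5.38 in untreated Pirc rats and 4.72 to 5.31 in untreated wildtype rats. In the DSS-treated Pirc rats 12, 16, 20 and 24 it was 3.93, 4.76, 3.08 and 4.86, the same order of rats as for Bmp2 and Bmp8a. The epithelial mean in these rats was 5.33, 5.42, 5.13 and 5.30, another order. Bmp3 and Bmp6 had other orders. Rat 24, with the highest goblet mean, had the lowest Bmp3 (-4.52), and Bmp6 was lowest in rat 12 (-4.92). The part of these cells in the differences of Bmp2, Bmp3, Bmp6 and Bmp8a was not tested.

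**Figure D5:**
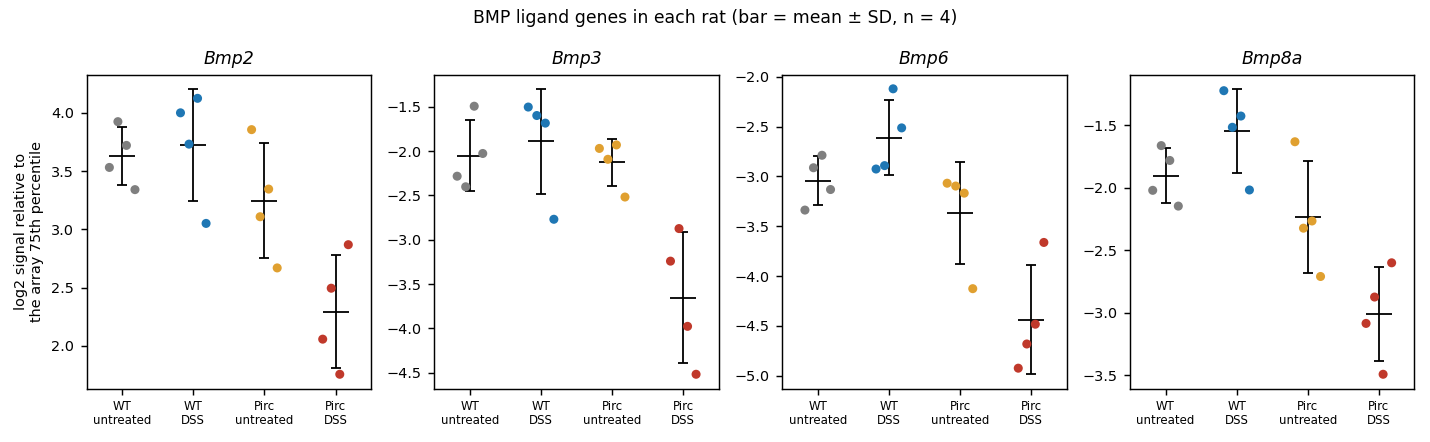
Level of Bmp2, Bmp3, Bmp6 and Bmp8a in each rat (log2 signal relative to the 75th percentile of the array, separate axis per gene), by genotype and treatment, with mean ± SD (n = 4). For all 4 genes every DSS-treated Pirc rat lies below every wildtype rat.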

How the data were processed

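RNA of normal distal colon from 16 rats, each a separate animal, was hybridised in Cy3 to Agilent arrays of 62976 spots. Per the file headers, the deposited values are Agilent Feature Extraction 10.7.3.1 output, and the processed signal used here is a linear intensity from which background was subtracted, without normalization across arrays by the authors. The submitters' notes also name Partek, whose values were not used here.

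After 4259 control spots were left out, the log2 intensity of 58717 spots was centred on the 75th percentile of each array and averaged per probe, without outlier-flagged spots. For 25 probe values all spots were flagged and were kept. Of 30367 probes, 18006 matched a transcript in the RefSeq table of GRCr8 (15159 symbols) and 12361 did not. The array was designed on another build, so probes have no coordinates here. Groups were compared with limma 3.58.1 in R 4.3.3 (1 mean per group, 16 arrays, Benjamini-Hochberg over all probes) in 7 comparisons. Tested on simulated arrays of 30367 probes, 87.5% of 200 changed probes were recovered for the DSS effect in Pirc rats with 9 other calls, and 69% for the difference between DSS effects with 5 other calls. The simulated shift was made only in DSS-treated Pirc rats. It was larger than the fitted difference between DSS effects of any member, so these shares do not hold for differences of the members' size.

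The members and all gene lists were chosen with earlier results of these data known. All members are named. Of the other pathway genes, up to 8 rises and 6 falls of the largest size were named per main effect and for the difference between DSS effects, among main probes that passed and were well above background on all arrays of the higher group, apart from 1 gene that is not reported here. Values of Bmp3, Bmp6, Bmp8a, Fst and Ltbp3 in further comparisons were added after their values were seen. A gene not well above background on any array of a group has only a bound there, computed against the detection limit of those arrays.

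Alternatives were quantile normalization, normexp (offset 50, on the median signal, since the files used here hold no mean signal), a filter on dim probes (21759 kept), a common floor at -6.22, slide or array row as a block, only the compared groups, probes of a gene averaged, a minimum change of a factor of 2, and each rat left out. No arrays were identical (0 pairs, highest correlation 0.993). Each of the 2 slides held 2 rats of every group. Every group lay in its own array column, and column therefore cannot be told apart from group.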

Additional observations from a re-analysis of the deposited data

Results flagged for a closer look

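Of 48 sets of 4 rats checked (12 probes in 4 groups), 2 held a rat separated from the other 3 by more than Dixon's 95% critical value, where chance gives about 1 in 20, or 2.4 sets. Bmp7 in DSS-treated wildtype rat 22 was at -2.22, with the other 3 rats of its group between 0.03 and 0.35. The second Grem1 probe in untreated wildtype rat 25 was at -3.50, with the other 3 rats between -8.70 and -7.82.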

How the results depend on the processing

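The counts of members passed moved as follows. A common floor left 3 for DSS in both genotypes together, 2 for DSS in Pirc rats and 1 for the difference between DSS effects (Tgfb1, 1.06, limma adjusted p = 0.0313). Every untreated Tgfb1 value lay at that floor. The 1.06 is therefore the Pirc difference after DSS over again, and it does not show that the DSS effects differed. Normexp left 0 for DSS in wildtype rats, 1 for the pooled Pirc effect and 1 for Pirc after DSS, and the median over all probes shifted to 0.15 for DSS and -0.18 for Pirc. The filter on dim probes gave 2 for DSS in wildtype rats, and a minimum change of a factor of 2 gave 0 for Pirc over both treatments. With 1 rat left out the count ranged from 3 to 6 for DSS in Pirc rats (3 without rat 16 or rat 20) and from 1 to 3 for DSS in wildtype rats (2 without rat 24 or rat 25, 3 without rat 26). Leaving out rats 16, 25 and 26 together, chosen after seeing the data, gave 3 in wildtype rats. Of the other pathway genes, the factor of 2 left 14 for DSS and 4 for Pirc over both treatments, and the filter on dim probes gave 16 for Pirc. The causes were not tested.

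Directions turned only for differences that did not pass. These were Tgfb1 for Pirc in untreated rats (-0.19) and Tgfb3 for Pirc over both treatments (-0.17) with normexp, Tgfb2 for DSS with quantile normalization (-0.047, with the second probe at -0.081, and at -0.26 with the floor) and for Pirc with probes averaged (0.51), and, with 1 rat left out, the values that follow. Bmp2 for DSS in wildtype rats ranged from -0.035 (without rat 22) to 0.32, Bmp7 for Pirc from -0.13 (without rat 22) to 0.30, the Bmp4 difference between DSS effects from -0.60 to 0.12 (without rat 14), Id1 for Pirc from -0.18 to 0.084, Id3 for DSS from -0.17 to 0.069 and the second Tgfb2 probe for DSS from -0.10 to 0.98. Without rats 16, 25 and 26, Id1 for Pirc was 0.022 and Id3 for DSS 0.031.

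With the floor, every compared value of Tgfb3 for DSS in wildtype rats and of Tgfb1 for Pirc in untreated rats lay at the floor, and no value was obtained. No analysis paired by rat was possible because the groups share no rat numbers. Each combination of slide and array row held 1 rat of every group. With slide or array row alone as a block the member counts did not move, and with both together as a block, chosen after seeing the data, 5 members passed for DSS over both genotypes, 4 for DSS in Pirc rats and 2 for Pirc over both treatments, with the calls of Grem1 (1.27, limma adjusted p = 0.056), Bmp2 (-0.95, limma adjusted p = 0.0606) and Bmp4 (0.94, limma adjusted p = 0.06) lost in that order. Dim signals limit Tgfb3, untreated Tgfb1, untreated Ltbp3 and the second Grem1 and Tgfb2 probes.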
